A study of Mus musculus with 19 samples.

Results

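Hpd, Hgd, Gstz1 and Fah encode the enzymes that carry tyrosine breakdown from 4-hydroxyphenylpyruvate to fumarate and acetoacetate. They are 4 of the 19287 entries in the table of kidney expression values, matched by their Entrez Gene IDs (15445 for Hpd, 15233 for Hgd, 14874 for Gstz1 and 14085 for Fah), and all 4 passed the filter on low values (1 FPKM or more in 4 or more libraries). The genes were chosen by the level of Hpd, which was higher in IRLacz than in IR kidneys, and Hgd, Gstz1 and Fah stand for the steps that follow it. The Hpd values in that pair of groups are therefore given as a description, and none of the genes is tested there.

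Kidney RNA of male C57BL/6 mice was sequenced in 19 libraries that form 4 groups, with expression given as FPKM, a fragment count corrected for gene length and library size. The IRLacz (n = 4) and IRLac (n = 5) mice received a Lactobacillus strain by oral gavage for 4 weeks before ischemia-reperfusion, in which the blood flow to the kidney is stopped and then restored. The IR mice (n = 5) had the same injury, and the sham mice (n = 5) give the level without it. Kidneys of injured mice were taken on day 5. The abbreviation IRLacz matches that of Lactobacillus casei Zhang in the study's design text, which leaves Lactobacillus acidophilus for IRLac, although that abbreviation is spelled differently there. No gavage is given for IR or sham mice, so an effect of the strain and one of the gavage itself cannot be told apart. Since no label says that libraries and mice match 1 to 1, p-values measure the spread between these libraries.

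Tyrosine comes from the diet and from phenylalanine. An aminotransferase turns tyrosine into 4-hydroxyphenylpyruvate, Hpd (4-hydroxyphenylpyruvate dioxygenase) converts that into homogentisate, and Hgd (homogentisate dioxygenase) opens the ring to give maleylacetoacetate. Gstz1 (maleylacetoacetate isomerase) forms fumarylacetoacetate, which Fah (fumarylacetoacetate hydrolase) splits. Liver and the proximal tubule of the kidney both carry the route. In people, loss of HGD causes alkaptonuria, and loss of FAH causes hereditary tyrosinemia, which damages liver and proximal tubule.

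Hpd is the gene whose level differed most between groups, and the 250 bases that precede its annotated start are shown for that reason. They lie at chr5:123182724-123182973 on the minus strand of GRCm38.p6 and come from RefSeq, and capitals mark the only GC box (GGGCGG, either strand), which begins 55 bases before the start.
Hpd upstream: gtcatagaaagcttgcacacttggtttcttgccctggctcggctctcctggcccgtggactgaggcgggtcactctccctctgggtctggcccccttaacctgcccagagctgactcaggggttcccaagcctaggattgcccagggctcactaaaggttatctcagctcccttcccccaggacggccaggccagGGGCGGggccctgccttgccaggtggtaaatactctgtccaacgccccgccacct
A GC box was present in 32.7% of 32851 windows of the same length. The Hpd window held none of the letters of an HNF1 motif (GTTAAT, in 6.43% of windows), a nuclear receptor motif (AGGTCA, 14%), a C/EBP site (TTNNGCAA, 9.56%) or a TATA box (TATAAA, 12.4%), each searched on both strands. The window before Hgd held 1 match each to AGGTCA, TTNNGCAA and TATAAA and no GC box. The window before Fah held 3 GC boxes and none of the other motifs, and each of the 2 windows before Gstz1 held 1 GC box and none of the others.

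FPKM totals ranged from 545590 to 584798 per library, and read depth is unknown. Low values of 57 genes moved in steps, from which relative depth was estimated at 0.979 to 1.031. Only values close to each gene's lowest positive value entered that estimate, so it could not show a large difference in depth. Injured kidneys had between 12750 and 13283 entries at 1 FPKM or more, against 11988 to 12156 in sham. Gstz1 shares 465 of its 5088 exon bases (9.14%) with Pomt2 on the other strand, and the strand setting of the counting is not given in the sources used here. Pomt2 stood at 7.20 FPKM in IRLacz, 7.91 in IRLac, 7.56 in IR and 7.43 in sham. Hpd overlaps Psmd9 on the other strand without sharing an exon base, and Psmd9 averaged between 13.4 and 13.9 FPKM in every group.

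Hpd was high in sham kidneys and low in all 14 injured kidneys, with the IRLacz libraries above the IR libraries. It measured 14.3, 11.4, 5.91 and 6.33 FPKM in the 4 IRLacz libraries. The 5 IRLac libraries had 0.3, 6.38, 4.78, 1.43 and 1.77 FPKM, and the 5 IR libraries had 2.41, 0.99, 3.22, 2.29 and 4.95 FPKM. The 5 sham libraries had 48.8, 34.5, 37.1, 32.6 and 39.0 FPKM. Every sham library was above every injured library, and the lowest IRLacz library was above the highest IR library. IRLac replicate 2 lay above the 2 lowest IRLacz libraries, so those groups overlapped, and the IRLac range held the whole IR range.

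Group means of Hpd were 9.49 ± 4.07 FPKM in IRLacz (SD, n = 4), 2.93 ± 2.54 in IRLac, 2.77 ± 1.46 in IR and 38.4 ± 6.31 in sham (n = 5 each). As a share of the sham mean, Hpd stood at 24.7% in IRLacz, 7.64% in IRLac and 7.22% in IR. In order of their means, IR, IRLac, IRLacz and sham follow each other from low to high, and neighbours IR and IRLac did not differ beyond their spread. Hpd fell in IRLac against sham by 3.58 on the log2(FPKM + 1) scale (SE 0.38, 95% interval -4.37 to -2.78, limma adjusted p = 2.11e-07), a 13.1-fold lower mean level. In that comparison 16.8% of the 13594 tested entries were called lower, that is, had an adjusted p below 0.05. This is the only pair of groups that holds none of the libraries whose values chose Hpd.

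**Figure D1:**
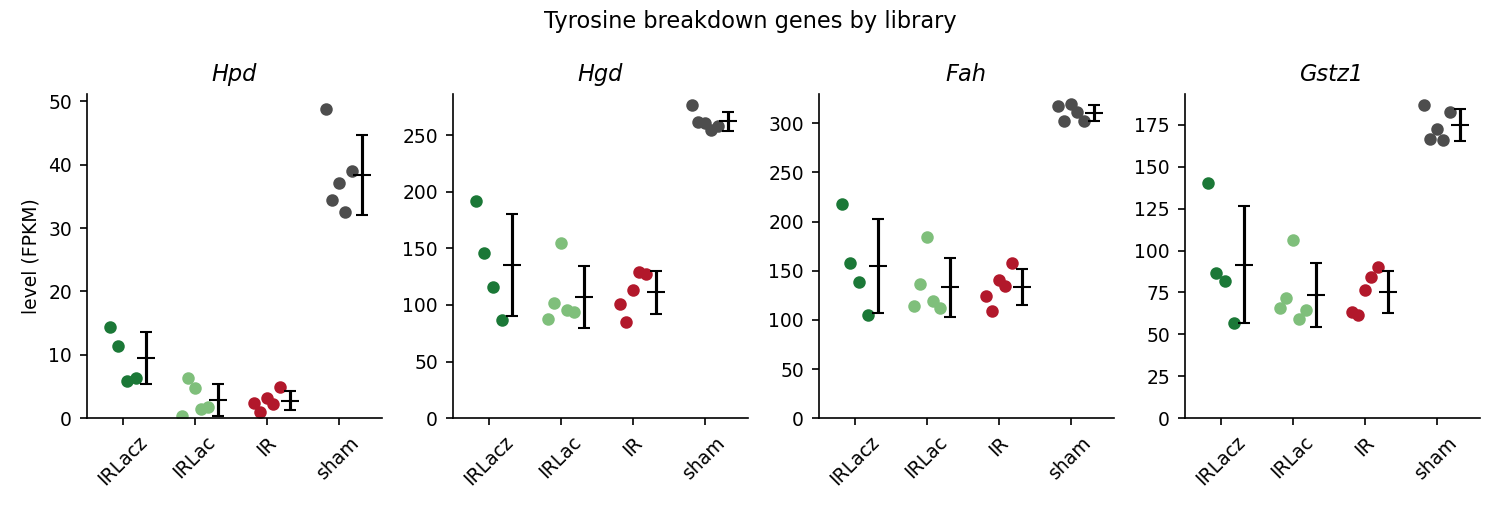
FPKM (vertical axes, each starting at 0) of Hpd, Hgd, Fah and Gstz1 in each library of IRLacz, IRLac, IR and sham kidneys, with points for libraries and bars for the mean ± SD. All sham points lie above all injured points in each panel, and Hpd averages 9.49 FPKM in IRLacz kidneys against 2.77 in IR kidneys.

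For the other pairs the Hpd values describe the choice. The difference in mean log2(FPKM + 1) was 1.48 for IRLacz against IR, a 3.42-fold higher mean level. It was 1.60 for IRLacz against IRLac (3.24-fold), -0.12 for IRLac against IR, -1.98 for IRLacz against sham and -3.46 for IR against sham. Without IRLacz replicate 1, the library with the highest Hpd after injury, the difference from IR was 1.27. The IRLac difference from IR was 0.22 without IRLac replicate 1 and -0.41 without IRLac replicate 2, so its sign rests on single libraries. In IRLacz against IR, 5.33% of all tested entries were higher with groups that did not overlap.

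Among all 13594 tested entries, Hpd had the 7th lowest difference in IR against sham, the 8th lowest in IRLac against sham and the 26th lowest in IRLacz against sham. Hgd, Fah and Gstz1 ranked between 246 and 329 in the same orders. These 3 comparisons share the sham libraries. The IR and IRLacz orders contain the Hpd values that chose the gene, so its ranks there are a description. Only the IRLac order holds none of those libraries.

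Hgd, which opens the aromatic ring, kept a larger share of its sham level than Hpd after injury. It measured 192, 146, 115 and 86.6 FPKM in the IRLacz libraries and 87.35, 102, 155, 95.9 and 93.6 FPKM in the IRLac libraries. The IR libraries had 101, 84.8, 114, 129 and 128 FPKM, against 277, 261, 260.3, 254 and 258 FPKM in the sham libraries. Sham libraries lay close together and above all injured libraries. The 3 injured groups overlapped each other, with IRLacz replicate 1 and IRLac replicate 3 at the top of the 14 injured libraries.

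Mean Hgd was 135 ± 45.1 FPKM in IRLacz (SD, n = 4), 107 ± 27.5 in IRLac, 111 ± 18.7 in IR and 262 ± 8.67 in sham (n = 5 each), or 51.5%, 40.8% and 42.4% of sham in the injured groups in that order. It fell in IRLacz against sham by 1.01 on the log2 scale (SE 0.188, limma adjusted p = 0.000138), in IRLac against sham by 1.32 (SE 0.178, adjusted p = 3.08e-06) and in IR against sham by 1.25 (SE 0.178, adjusted p = 5.18e-06).

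Gstz1, the isomerase of the next step, had the same order of group means as Hgd, with sham highest, then IRLacz, IR and IRLac, and the 3 injured groups overlapped. It measured 140, 86.8, 82.0 and 57.1 FPKM in the IRLacz libraries and 65.8, 71.75, 106, 59.35 and 64.5 FPKM in the IRLac libraries. The IR libraries had 63.6, 61.6, 76.65, 84.3 and 90.4 FPKM, against 187, 166, 173, 166 and 183 FPKM in the sham libraries. IRLacz replicate 1 came nearest to the sham range and IRLacz replicate 4 was the lowest of all 19 libraries.

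Mean Gstz1 was 91.5 ± 34.9 FPKM in IRLacz, 73.6 ± 18.9 in IRLac, 75.3 ± 12.6 in IR and 175 ± 9.50 in sham. It fell by 1.00 on the log2 scale in IRLacz against sham (SE 0.196, limma adjusted p = 0.000217), by 1.27 in IRLac against sham (adjusted p = 7.19e-06) and by 1.22 in IR against sham (adjusted p = 1.02e-05).

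Fah, the last enzyme of the route, had the highest FPKM of the 4 genes in every library. It measured 218, 157.5, 139 and 105 FPKM in the IRLacz libraries and 114, 137, 184, 119.5 and 112 FPKM in the IRLac libraries. The IR libraries had 125, 109.6, 140.3, 134 and 158 FPKM, against 318, 302, 319, 312 and 303 FPKM in the sham libraries. Again all sham libraries were above all injured ones, and IRLacz replicate 1 and IRLac replicate 3 led the injured libraries.

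Mean Fah was 155 ± 47.6 FPKM in IRLacz, 133 ± 30.25 in IRLac, 133 ± 17.96 in IR and 311 ± 8.13 in sham. It fell by 1.05 on the log2 scale in IRLacz against sham (SE 0.167, limma adjusted p = 3.04e-05), by 1.24 in IRLac against sham (adjusted p = 1.55e-06) and by 1.22 in IR against sham (adjusted p = 1.61e-06).

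Hgd, Fah and Gstz1 were thus 3 of 3 genes called lower in each comparison with sham, where 13.5% (IRLacz), 16.8% (IRLac) and 18.6% (IR) of all tested entries were called lower. All 4 genes had no overlap with sham in each injured group. Entries lower without overlap made up 10% of those tested in IRLacz, 11.8% in IRLac and 15.2% in IR. The median log2 difference over all tested entries was 0.292 in IRLacz, 0.299 in IRLac and 0.29 in IR against sham. On this unscaled FPKM the genes lay further below the median entry than their differences from 0 show. With quantile normalization those medians were -0.0428, -0.0424 and -0.0609, so this did not hold there. In IRLacz against sham, 7729 entries were called higher and 1834 lower, against 4255 and 4218 after median-ratio scaling and 3518 and 4215 after quantile normalization. The counts were 7885 and 2285, 4580 and 4595, and 4141 and 4822 for IRLac, and 7747 and 2529, 4830 and 4721, and 4222 and 5294 for IR. Hpd, Hgd, Fah and Gstz1 kept their direction against sham under these scalings. The Hgd difference for IR against sham was -1.58 with median-ratio scaling and -1.11 with quantile normalization.

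**Figure D2:**
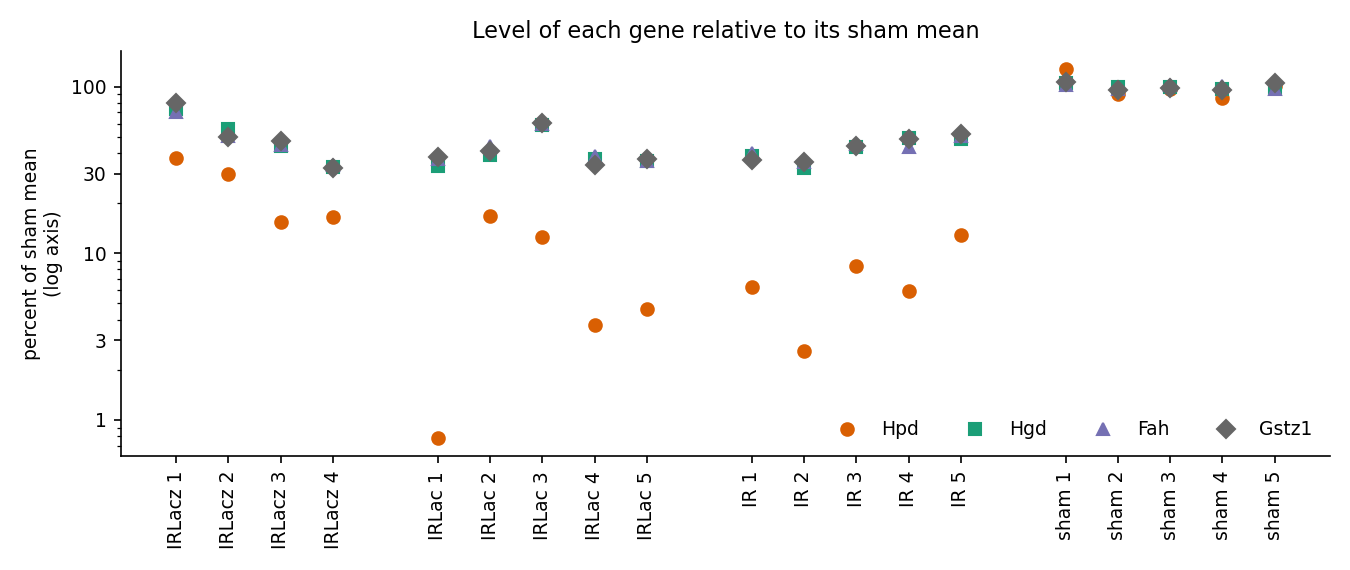
Level of Hpd, Hgd, Gstz1 and Fah in each library as a percent of the gene's own mean over the 5 sham libraries, on a logarithmic axis. Hgd, Gstz1 and Fah fall together between 32.35% and 80.0% in the injured libraries, while Hpd lies lower in each of them, between 0.782% and 37.3%.

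The levels of Hgd, Fah and Gstz1 moved in near-constant ratio from library to library, and the Hpd level varied against all of them. The Fah to Hgd ratio lay between 1.04 and 1.34 in all 19 libraries, the Gstz1 to Hgd ratio between 0.595 and 0.753, and the Fah to Gstz1 ratio between 1.56 and 2.01. The Hpd to Hgd ratio ran from 0.00343 to 0.176, with means of 0.0692 in IRLacz, 0.0261 in IRLac, 0.0241 in IR and 0.146 in sham. Each IRLacz library was between 0.0512 and 0.0781 and each IR library between 0.0117 and 0.0388. These ratios contain the Hpd values that chose the gene and are a description. IRLac spanned 0.00343 to 0.0625 and overlapped both.

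Per library, the log2(FPKM + 1) of Hpd minus that of Hgd averaged -5.01 ± 0.834 in IRLac and -2.75 ± 0.178 in sham (SD, n = 5 each), a difference of -2.26. The two-sided exact permutation test gave p = 0.00794, the smallest that 5 against 5 libraries allow. Benjamini-Hochberg adjustment over the 7 such differences computed made this permutation p 0.0556. A lone difference at the smallest p cannot fall below 0.05 after that adjustment, so the adjusted value decides nothing here. All 5 IRLac libraries were below all 5 sham libraries. Fah minus Hgd and Gstz1 minus Hgd differed from sham by between -0.0381 and 0.0765 in the 3 injured groups, none past the test, with the lowest exact permutation p at 0.103 (adjusted 0.361). This family of differences was added after the values had been seen.

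**Figure D3:**
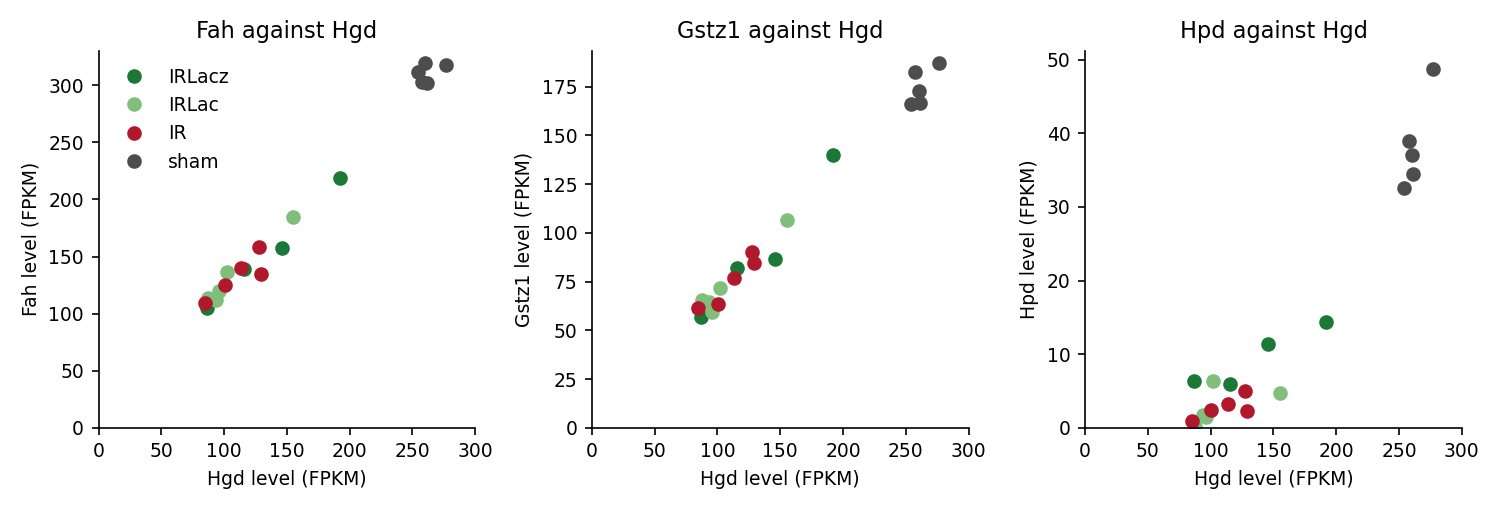
FPKM of Fah, Gstz1 and Hpd (vertical axes) against FPKM of Hgd (horizontal axis), 1 point per library, coloured by group. Fah and Gstz1 points lie along a line through all 4 groups, whereas Hpd stays at 14.3 FPKM or less in injured libraries at any Hgd level.

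A root mean square difference of centred log2(FPKM + 1) profiles over the 19 libraries measured likeness. Hgd was nearest to Gcdh (glutaryl-CoA dehydrogenase of lysine breakdown) at 0.074, Fah at 0.0848, Gstz1 at 0.0849 and Cth (cystathionine gamma-lyase) at 0.0915. Fah was nearest to Shmt2 (mitochondrial serine hydroxymethyltransferase) at 0.0654, Cat (catalase) at 0.0788, Thnsl2 at 0.0843 and Hgd at 0.0848. Gstz1 was nearest to Hgd, then Fah at 0.0909, Gcdh at 0.0955 and 4833439L19Rik at 0.0978.

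Hpd had no neighbour as close. Its nearest entries were Cyp2d12 at 0.557 and Cyp2d9 at 0.577, both cytochrome P450 genes of a family of near-identical copies whose reads may be shared, then Dnase1 (a secreted endonuclease) at 0.582 and Ugt3a1 (a glycosyltransferase) at 0.586. The size of the Hpd profile itself was 1.59, against 0.576 to 0.606 for the other genes. Dnase1 averaged 83.8 FPKM in IRLacz, 42.9 in IRLac, 60.9 in IR and 520.2 in sham, and Ugt3a1 averaged 52.6, 29.6, 28.4 and 171 FPKM in the same groups. Hgd stood at rank 216 in likeness to Hpd. The points share libraries and the difference between injured and sham kidneys.

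Among the injured groups, Hgd, Gstz1 and Fah gave no call, and none had an unadjusted p below 0.05 in the tested pairs. For IRLac against IR the log2 difference was -0.07 for Hgd (95% interval -0.444 to 0.301, limma adjusted p = 0.997), -0.05 for Gstz1 (-0.437 to 0.337, adjusted p = 0.997) and -0.02 for Fah (-0.348 to 0.312, adjusted p = 0.999). In that comparison limma called 1 of 13594 entries (0.00736%), and 786 had an unadjusted p below 0.05. For IRLacz against IRLac the differences were 0.31 for Hgd (-0.0879 to 0.702, adjusted p = 0.42), 0.27 for Gstz1 (-0.141 to 0.68, adjusted p = 0.502) and 0.19 for Fah (-0.157 to 0.543, adjusted p = 0.583). There limma called 3 entries (0.0221%), and 2171 had an unadjusted p below 0.05.

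For IRLacz against IR, the pair that led to Hpd, the other genes are described without a test. Hgd differed by 0.24, Gstz1 by 0.22 and Fah by 0.17 on the log2 scale, and the groups overlapped for each. Without IRLacz replicate 1 these were 0.05, -0.01 and -0.01, so these values rest on that library. The IRLac and IRLacz comparisons with IR share the IR libraries.

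The rest of phenylalanine and tyrosine metabolism was read from a list of 32 genes by function, of which 31 were found and 28 passed the filter. Against sham, IRLacz had 18 of the 28 lower and 3 higher, with a median log2 difference of -0.466. IRLac had 20 lower and 4 higher, with a median of -0.533, and IR had 21 lower and 4 higher, with a median of -0.614. Over all tested entries, 13.5% were called lower in IRLacz, 16.8% in IRLac and 18.6% in IR.

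Upstream of Hpd, Qdpr and Pcbd1, which regenerate the cofactor tetrahydrobiopterin, fell in all 3 injured groups against sham. Both fell in IRLacz against sham by 0.69 and 0.78 on the log2 scale (limma adjusted p = 6.85e-05 and 0.000252), in IRLac against sham by 0.89 and 0.88 (limma adjusted p = 1.64e-06 and 3.17e-05) and in IR against sham by 0.92 and 0.96 (limma adjusted p = 9.33e-07 and 1.16e-05). Dnajc12, which encodes a co-chaperone, averaged 66.7 FPKM in IRLacz, 45.2 in IRLac, 44.5 in IR and 175 in sham, and fell in IR against sham by 1.97 (limma adjusted p = 1.2e-07).

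Of the aminotransferase genes, Got1 and Got2 lay nearer to their sham level than Hpd did. Tat, the tyrosine aminotransferase of liver, was listed at 0 in all 5 sham libraries and at 0.51 FPKM or less elsewhere, below the filter. Got2, a mitochondrial aspartate aminotransferase that can also act on tyrosine, averaged 143.5 FPKM in IRLacz, 138 in IRLac, 132 in IR and 177 in sham. It fell against sham by 0.30, 0.36 and 0.42 in those injured groups (limma adjusted p = 0.00292, 0.000403 and 8.14e-05), and the IRLacz call was lost with quantile normalization (adjusted p = 0.149, against 4.29e-05 to 0.149 over its alternatives). The cytosolic Got1 averaged 61.8, 59.1, 54.3 and 64.2 FPKM in IRLacz, IRLac, IR and sham, and its IR call (-0.24, limma adjusted p = 0.0481) was lost in 11 of 22 alternatives, with adjusted p from 0.000659 to 0.118. With median-ratio scaling Got1 was also called lower in IRLacz and IRLac against sham (limma adjusted p = 0.0168 and 0.00323), and without IRLac replicate 3 in IRLac against sham (adjusted p = 0.0467).

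**Figure D4:**
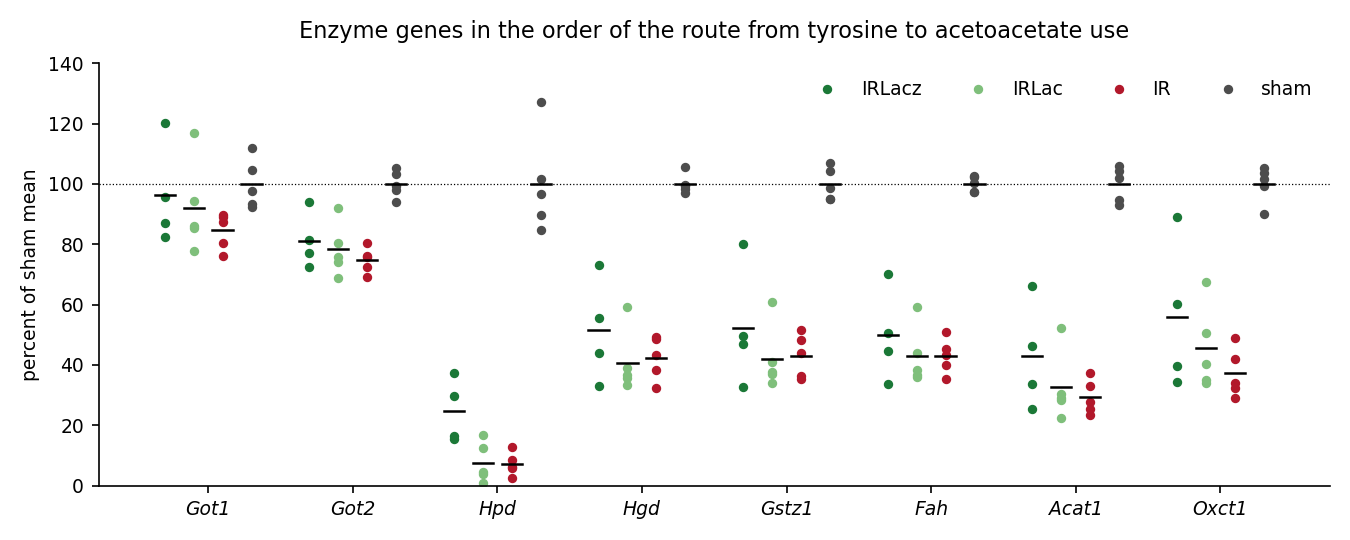
Percent of the sham mean for Got1, Got2, Hpd, Hgd, Gstz1, Fah, Acat1 and Oxct1, with 1 point per library and a bar at each group mean. Got1 to Fah are drawn in the order of the route, and Acat1 and Oxct1, drawn last, are not. Hpd is lowest in the injured groups, at 24.7% in IRLacz, 7.64% in IRLac and 7.22% in IR.

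Downstream of Fah, Acat1 (an acetoacetyl-CoA thiolase) fell as well. It averaged 201 FPKM in IRLacz, 152 in IRLac, 137 in IR and 467 in sham, and fell in IR against sham by 1.78 (SE 0.221, limma adjusted p = 1.05e-06). Adh1, an alcohol dehydrogenase, fell in IR against sham by 0.93 (limma adjusted p = 8.1e-07). Ddc, which decarboxylates the tyrosine product L-DOPA, fell by 0.98 in IRLacz against sham and by 1.31 in IRLac against sham (limma adjusted p = 5.99e-05 and 9.46e-07). Ddc also fell in IR against sham, by 1.27 (limma adjusted p = 1.14e-06).

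A few genes of the list rose, where 56.9% (IRLacz), 58% (IRLac) and 57% (IR) of all tested entries were called higher against sham. Gch1, which starts tetrahydrobiopterin synthesis, averaged 1.87 FPKM in IRLacz, 2.18 in IRLac, 3.06 in IR and 0.568 in sham, and rose in IR against sham by 1.36 (limma adjusted p = 4.05e-07). Maoa, a monoamine oxidase, rose in IRLacz and IRLac against sham by 0.89 and 1.07 (limma adjusted p = 4.83e-05 and 2.06e-06). It also rose in IR against sham, by 0.89 (limma adjusted p = 1.5e-05). Il4i1 (all 3 injured groups) and Hpdl (IRLac) were also called higher against sham, and were named after their values were seen. With quantile normalization Gch1 was no longer called in IRLacz (limma adjusted p = 0.0922), nor Il4i1 in IR (0.118), and Hpdl turned to -0.16 in IRLac.

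Between IRLacz and IR, 3 of the 28 genes passed, and 13.3% of all tested entries did. Pts, another enzyme of tetrahydrobiopterin synthesis, rose by 0.25 (35.8 FPKM in IRLacz against 29.9 in IR, limma adjusted p = 0.0261), a call lost in 3 of 22 alternatives with adjusted p from 0.00759 to 0.0752. Adh1 rose by 0.37 (345 against 267 FPKM, limma adjusted p = 0.0493), lost in 15 of 22 with adjusted p from 0.0273 to 0.138. Gch1 fell by 0.51 (limma adjusted p = 0.0453), lost in 12 of 21 with adjusted p from 0.0135 to 0.155. With limma, 0 of the 28 genes passed in IRLac against IR, where 2 had an unadjusted p below 0.05, and 0 passed in IRLacz against IRLac, where 3 had one.

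A list of 50 enzymes that break down other amino acids, 46 of them tested, gave a setting for the 4 genes. Against sham, IRLacz had 36 lower and 2 higher (median -0.71), IRLac had 41 lower and 2 higher (median -0.889) and IR had 40 lower and 1 higher (median -0.972). Over all tested entries, 13.5%, 16.8% and 18.6% were called lower in those groups, and 56.9%, 58% and 57% higher. Hgd, Fah and Gstz1 lay below these medians in each group, and Hpd lay below all 46 genes in each group. For Hpd this is a description in IRLacz and IR, whose values chose the gene. The largest falls in IR against sham were those of Dmgdh (dimethylglycine dehydrogenase) at -2.21, Aass (first enzyme of lysine breakdown) at -1.89, Ivd (isovaleryl-CoA dehydrogenase) at -1.57 and Cbs (cystathionine beta-synthase) at -1.54. In IRLacz against IR, 7 of the 46 (15.2%) were called higher and 0 lower with limma, where 5.39% of all tested entries were called higher and 13.3% in either direction. They were led by Agxt2 (0.54), Hibch (0.49), Amt (0.46) and Hoga1 (0.45), with limma adjusted p from 0.0257 to 0.0499. Those 4 calls were lost in 7 to 15 of 22 alternatives, with adjusted p from 0.0047 to 0.158. All 4 were lost without IRLacz replicate 1 (limma adjusted p from 0.0821 to 0.158). The same held without IRLacz replicate 2, IR replicate 2 or IR replicate 3.

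**Figure D5:**
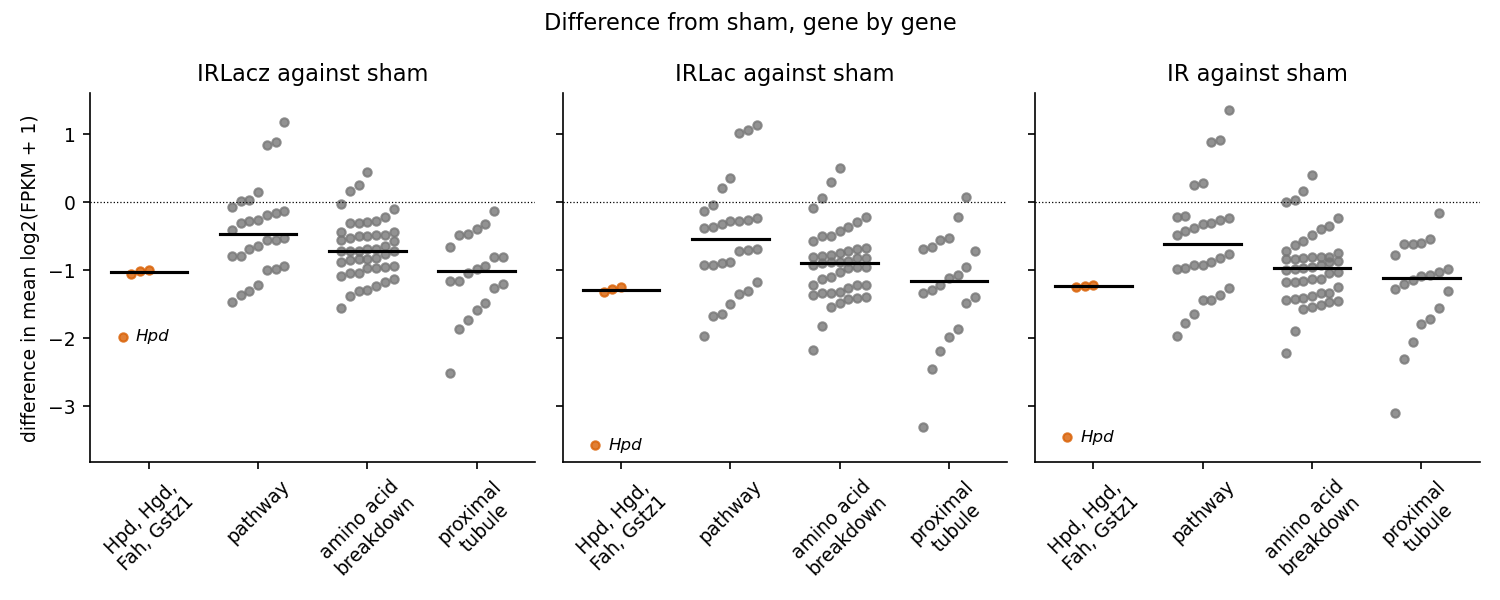
Difference in mean log2(FPKM + 1) from sham for each tested gene of 4 groups of genes (Hpd with Hgd, Fah and Gstz1, the rest of the pathway, other amino acid breakdown, and proximal tubule markers), with a bar at the median, in IRLacz, IRLac and IR kidneys. Hpd lies at -1.98, -3.58 and -3.46, and Hgd, Fah and Gstz1 lie between -0.9997 and -1.32.

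Markers of the proximal tubule, the segment that carries the route, moved with Hgd, Fah and Gstz1. Of 20 markers, 16 were called lower in IRLacz, 18 in IRLac and 19 in IR against sham. Over all tested entries, 13.5%, 16.8% and 18.6% were called lower in those groups. The median marker stood at 51.4% of sham in IRLacz, 45.2% in IRLac and 45.8% in IR, close to the 51.5%, 40.8% and 42.4% of Hgd. By library it was highest after injury in IRLacz replicate 1 (69.6%) and IRLac replicate 3 (58.1%), the libraries that lead Hgd, Fah and Gstz1. For Hpd, IRLacz replicate 1 ranked 1 and IRLac replicate 3 ranked 7 of 14. The summed level of the markers was 8223 to 30855 FPKM in IRLacz, 7178 to 25249 in IRLac, 8322 to 17344 in IR and 41328 to 46099 in sham. By group mean, most of that sum was Kap, at 13590 FPKM in IRLacz, 8812 in IRLac, 8340 in IR and 32840 in sham. In bulk tissue, fewer cells of a type and less RNA per cell cannot be told apart, and the part of these markers in the results was not tested.

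Other cell types moved as well. The 6 macrophage markers summed to 304 to 622 FPKM in IRLacz, 398 to 1076 in IRLac, 655 to 962 in IR and 45.4 to 58.0 in sham. In the injured groups most of that sum was Lyz2, which averaged 353.2, 619.6 and 648.5 FPKM there, against 24.94 in sham. All 6 were called higher in each injured group, where 56.9% to 58% of all tested entries were. The 7 markers of thick limb and distal tubule summed to 1924 to 3378 FPKM in IRLacz, 796 to 2875 in IRLac, 1004 to 1835 in IR and 2368 to 3299 in sham. Umod made up most of it, averaging 1777, 1434, 1194 and 1749 FPKM in the same groups. The 5 collecting duct markers summed to 392 to 885, 260 to 782, 267 to 661 and 296 to 446 FPKM in those groups. Most of that last sum was Aqp2, a water channel, which averaged 557 FPKM in IRLacz, 394 in IRLac, 325 in IR and 237 in sham. The median collecting duct marker stood at 111% of sham in IRLacz, 80.9% in IRLac and 67.4% in IR, with 1 higher and 0 lower, 0 higher and 1 lower, and 0 higher and 3 lower of the 5 called with limma. Over all tested entries, 56.9% to 58% were called higher in the injured groups against sham and 13.5% to 18.6% lower. The part of these cell types in the results was not tested. The 12 hepatocyte markers summed to 328 to 703 FPKM in IRLacz, 216 to 429 in IRLac, 177 to 441 in IR and 848 to 1074 in sham, mostly Cyp2e1, a cytochrome P450 gene also expressed in kidney. Of the 12, 7 were tested, with 2 called higher and 4 lower in IRLacz, and 2 higher and 5 lower in IRLac and in IR. The shares over all tested entries are those given above for the same groups. The fibrinogen genes Fgb and Fga rose, Fgb averaging 18.4 FPKM in IRLacz, 16.4 in IRLac, 11.8 in IR and 1.2 in sham, and Fga 54.2, 47.5, 41.9 and 17.9 FPKM in the same groups. Ttr averaged 52.7, 36.9, 30.02 and 80.1 FPKM, and Apob and Apoa2 each averaged between 4.29 and 10.9 FPKM. Alb averaged 1.00 FPKM in IRLacz, 0.594 in IRLac, 0.474 in IR and 2.79 in sham, Ahsg did not exceed 0.09 FPKM and Cps1 did not exceed 0.05 FPKM in any library.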

How the data were processed

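Kidney RNA libraries were grouped by their titles. The authors deposited FPKM values per gene, and HISAT, StringTie 1.0.4 and build mm9 appear, without a role, per the submitters' processing notes. For annotation, strand and filters, the setting is not given in the sources used here. Other transcription factor tables were not used here.

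Of 19287 entries, 18238 matched a symbol in RefSeq GRCm38.p6, which gave names, promoter windows and motif shares. No coordinate of the deposited values was used. Entries that reached 1 FPKM in 4 or more libraries (13594) were tested as log2(FPKM + 1), which understates changes of low genes, with limma 3.58.1 (R 4.3.3, mean-variance trend, all 19 libraries, 15 residual degrees of freedom) and Benjamini-Hochberg adjustment within each comparison, threshold 0.05. Genes and lists were chosen with earlier results of these data known.

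Named genes beyond the 4 were Tat, Got1, Got2, Qdpr and Pcbd1, up to 5 further pathway genes with the smallest adjusted p, the 4 other amino acid genes with the largest called difference, and the 4 nearest profiles of each gene. Some genes that this rule or the text would name are not reported here and count only in list totals. Low values were checked for steps: of 247 values worth 2 to 5 steps, 73.68% were whole to within 0.1, against 20% with no steps. On simulated data with 13594 genes, limma recovered 83.58% of 1.5-fold, 97.01% of 2-fold and 98.48% of 4-fold changes for IR against sham, with 12 false calls among 198, and 74.63%, 95.52% and 100% for IRLac against IR, with 5 false calls among 185. In the deposited data limma called 7747 entries higher and 2529 lower for IR against sham. Recovery with that many changes was not tested. Gene overlaps were read from an annotation of another build. Alternatives varied the pseudocount, filter, scaling, variance model, replicate block and libraries used.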

Additional observations from a re-analysis of the deposited data

Results flagged for a closer look

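IRLac replicate 3 stood apart from the other 4 IRLac libraries in 7 of the 25 genes whose IRLac values were checked with Dixon's test, which compares the gap of the extreme library with the whole range. Chance flags about 1 in 20 groups, and the 7 were the only flags in 99 groups of values checked over the 4 sample groups. The flags share IRLac replicate 3, and Hgd and Gstz1 moved together over the libraries. They are therefore not independent, and their count cannot be judged by that rate. All 7 were high values of that library. Hgd was 155.02 FPKM there, against 87.35 to 102.07 in the other IRLac libraries, and Gstz1 was 106.39 against 59.35 to 71.75. The other genes were Qdpr at 187.78 (others 125.66 to 142.4), Pcbd1 at 242.03 (147.65 to 163.16), Dnajc12 at 67.16 (36.26 to 43.93), Acat1 at 244.61 (104.98 to 142.25) and Cbs at 74.14 FPKM (32.61 to 41.2). Hpd in the same library was 4.78 FPKM, inside the range of the others. The median proximal tubule marker was also highest in that IRLac library, at 58.1% of sham, and its part in these values was not tested.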

How the results depend on the processing

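Hpd, Hgd, Fah and Gstz1 kept their direction and, where tested, their call against sham in all alternatives run. Hpd for IR against sham was -2.489 with a pseudocount of 5, and for IRLacz against IRLac 0.8847. Correlations between the deviations of same-numbered libraries ran from -0.394 to 0.23. They do not exclude that the numbers pair libraries, and such a pairing is not known. With the replicate block the entries called were 0 for IRLac against IR, 1574 for IRLacz against IR and 1 for IRLacz against IRLac, with 1 pathway gene for IRLacz against IR.

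For IRLac against IR, the 1 entry became 0 with a pseudocount of 5, a mean of at least 5 FPKM, library weights, and without IRLacz replicate 1 and IRLac replicate 3 together (an alternative added after seeing the data). Leaving out each library gave 0 to 116, the highest without IR replicate 5. For IRLacz against IR, 1809 became 2978 with library weights and 885 with only those groups, and 606 to 2197 without a library, the lowest without IR replicate 3. Its 3 pathway genes became 1 with a pseudocount of 0.1, no filter, only those groups, or without both libraries, and 0 to 6 without a library, the highest without IRLacz replicate 4. For IRLacz against IRLac, 3 entries became 1 with a pseudocount of 0.1 or only those groups, 0 with a pseudocount of 5 or a mean of at least 5 FPKM, 5 with no filter, 167 with library weights, 86 without both libraries, and 1 to 490 without a library, the highest without IRLac replicate 3.

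Differences that were not called or not tested changed sign. For IRLac against IR without a library, Hpd ran from -0.411 to 0.2152, Fah from -0.1411 to 0.04507, Gstz1 from -0.1891 to 0.01932, Qdpr from -0.06121 to 0.08272 and Pcbd1 from -0.04364 to 0.1337. Library weights gave -0.007529 for Qdpr, and leaving out both libraries gave -0.06121 for Qdpr and -0.04364 for Pcbd1. For IRLacz against IR, Pcbd1 ran from -1.5e-05 to 0.3288, with the lowest value also found without both libraries. For IRLacz against IRLac, Got1 from -0.04812 to 0.1505, Got2 from -0.01976 to 0.1124 and Pcbd1 from -0.07912 to 0.2497. These lowest values came without IRLacz replicate 1. Got1 for IRLacz against sham ran from -0.1753 to 0.004148 without a library, and was called with median-ratio scaling (-0.3953). Fah minus Hgd for IR against sham ran from -0.0015 to 0.0752, the highest without IR replicate 4 with an exact permutation p of 0.0397 (adjusted p = 0.139), and Gstz1 minus Hgd for IRLacz against sham from -0.0272 to 0.0696, with other negative values of -0.0155 and -0.00501. The cause was not tested. Read depth is unknown, so counting error of low Hpd values could not be given.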
